A study of Mus musculus with 4 samples.

Results

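Genes that build cholesterol and fatty acids were followed across the cell types of 4 mouse medulloblastomas. Their 32 names were a fixed list of enzymes, regulators and desaturases, and 31 of them were listed by name in all 4 expression tables, of 33219 genes listed in at least 1 table and 13149 listed in all 4. The other name, Msmo1, appeared under its older symbol Sc4mol, and its values are given separately and enter no count of the 31. The study profiled single cells of sonic hedgehog (SHH) medulloblastoma, a cerebellar tumour of granule neuron progenitors, taken at end point from mice that carried Ptch1+/- (1 intact copy of the hedgehog receptor gene) and had been irradiated as newborns. There was 1 group of 4 untreated tumours, called tumours 1 to 4 here, and no normal cerebellum or other genotype to compare it with. The cells had been frozen alive, thawed, sorted as live cells and sequenced with the 10x Genomics platform. The labels did not say separately that each tumour came from a different mouse, so every p-value below measures only the spread between these 4 samples. The mice's age is not stated in the labels.

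The tables held 798, 2589, 1229 and 1893 cells for tumours 1 to 4, with 19446245, 23439893, 10458431 and 18242667 unique molecular identifiers (UMIs, counted transcript molecules) in all. The median UMIs per cell were 15284 in tumour 1 and 6799 to 7825 in the others. Pairs of tumours shared between 0 and 7 cell barcodes. Ptch1 itself gave only 5 to 10 UMIs per tumour, which checks no genotype. Levels below are in CPM: the UMIs of a gene were summed over a tumour's cells of 1 class and scaled to the same total for every such sum. They are not divided by gene length, and levels are compared mainly between cells. Sums over several genes weigh the genes with the highest levels most.

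Cholesterol is made from acetyl-CoA through mevalonate and farnesyl diphosphate to squalene, and then through lanosterol and a series of reductions and isomerisations. The transcription factors SREBP-1 and SREBP-2, encoded by Srebf1 and Srebf2, are carried from the endoplasmic reticulum by Scap and held there by Insig1 when sterols are plentiful. SREBP-2 is best known for driving the sterol genes, and SREBP-1 for the genes of fatty acid synthesis and desaturation. Sterols are needed for Smoothened, the transducer of the hedgehog signal, to be active, and cholesterol is a main lipid of the myelin made by oligodendrocytes.

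Promoters of 4 genes described below, from different steps of the pathway, are shown first, because SREBPs act through short sterol regulatory elements next to sites for other factors such as NF-Y. Each runs from 250 bases before a gene's start to 50 bases after it, 300 bases 5' to 3' on the gene's strand, from RefSeq on GRCm38.p6. Capitals mark the searched letters TCACNCCAC (sterol regulatory element), and CCAAT or its reverse complement ATTGG (NF-Y), looked for on both strands. The motifs did not overlap in these windows. Hmgcs1 lies at chr13:119690101-119690400 on the plus strand, Mvd at chr8:122443373-122443672 on the minus strand, Srebf1 at chr11:60210422-60210721 on the minus strand and Elovl5 at chr9:77917115-77917414 on the plus strand.
Hmgcs1: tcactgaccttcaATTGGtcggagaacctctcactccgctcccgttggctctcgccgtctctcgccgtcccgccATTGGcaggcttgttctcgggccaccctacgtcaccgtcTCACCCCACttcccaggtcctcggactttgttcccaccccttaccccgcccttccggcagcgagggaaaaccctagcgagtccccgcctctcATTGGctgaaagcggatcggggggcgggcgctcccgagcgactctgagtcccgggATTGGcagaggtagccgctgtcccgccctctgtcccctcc
Mvd: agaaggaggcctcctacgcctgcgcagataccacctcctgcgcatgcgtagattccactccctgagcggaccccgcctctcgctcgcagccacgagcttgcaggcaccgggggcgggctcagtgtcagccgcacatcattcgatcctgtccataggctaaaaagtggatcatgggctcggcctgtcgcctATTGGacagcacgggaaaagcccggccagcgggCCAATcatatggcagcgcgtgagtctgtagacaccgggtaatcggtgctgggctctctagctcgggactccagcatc
Srebf1: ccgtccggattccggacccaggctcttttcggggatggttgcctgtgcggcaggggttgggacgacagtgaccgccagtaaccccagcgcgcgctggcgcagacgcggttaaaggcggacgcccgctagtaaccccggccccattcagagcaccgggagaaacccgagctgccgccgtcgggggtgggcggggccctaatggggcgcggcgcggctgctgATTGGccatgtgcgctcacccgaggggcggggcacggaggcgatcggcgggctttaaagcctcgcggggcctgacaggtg
Elovl5: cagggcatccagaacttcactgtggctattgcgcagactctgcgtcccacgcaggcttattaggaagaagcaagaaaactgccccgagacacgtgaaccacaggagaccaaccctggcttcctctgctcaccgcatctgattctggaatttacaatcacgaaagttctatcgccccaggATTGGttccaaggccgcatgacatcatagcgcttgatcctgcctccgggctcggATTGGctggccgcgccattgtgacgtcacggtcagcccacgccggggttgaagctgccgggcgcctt
Hmgcs1 held the sterol element letters 137 bases before its start and ATTGG at 4 places. Mvd held ATTGG 60 bases and CCAAT 27 bases before its start. The Srebf1 window shown held ATTGG 30 bases before that start. RefSeq gave windows for further Srebf1 starts. Elovl5 held ATTGG 71 and 17 bases before its start.

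Of the 32 names, 25 had a promoter in the RefSeq table, against 27025 genes in all. The letters CCAAT, in either direction, were found in 20 of these 25 genes (80%, Msmo1 among them) and in 41.06% of all genes with a promoter there. The sterol element letters were found in 1 of 25, Hmgcs1, and in 1.436% of all. The letters GACCACCCA, bound by the hedgehog factors Gli, were found in 0 of 25 and in 0.2886% of all. A match describes the letters only, and this window is short. The genes lie on many chromosomes. The neighbours are Fads2 and Fads1, 81.4 kb apart, and Scd2 and Scd1, 87.6 kb apart, both on chromosome 19. Exons of 11 of the genes overlap another annotated gene. Examples on the same strand are Fdps with Gm43738 over 1124 bases and Tm7sf2 with Vps51 over 532 bases. Examples on the opposite strand are Fdft1 with Ctsb over 774 bases and Hmgcs1 with Gm48342 over 557 bases. The sources used here do not say whether strand was used in counting, so the levels of such genes are uncertain, as are those of the close copies Scd1 and Scd2.

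Cells were clustered without any of the 31 genes and named from lists of marker genes, so a class name ends in "-like". Granule progenitor-like cells numbered 146, 621, 284 and 3 in tumours 1 to 4, and cycling-like cells 227, 1106, 488 and 307. Both together are called progenitor-like. Neuron-like cells, led by Tubb3, Rab3a and Stmn2, numbered 49, 502, 197 and 4. Astrocyte-like cells numbered 16, 11, 20 and 22, oligodendrocyte lineage-like cells 10, 16, 41 and 40, and myeloid-like cells 82, 124, 12 and 463. Unnamed clusters held between 7.65% and 35.8% of a tumour's cells. Tumour 4 stood apart: it was rich in myeloid-like and neutrophil-like cells, and its progenitor-like cells came almost wholly from a single cycling-like cluster of 292 cells found in that tumour alone. That cluster was named for its cell cycle markers; it was led by Hist1h3c and ribosomal pseudogenes such as Rps2-ps10, and granule progenitor markers summed to 1469 CPM in the progenitor-like cells of tumour 4 against 2768 to 4655 CPM in those of the others. With finer clusters, a cluster of 174 cells from tumour 4 alone, also led by Rps2-ps10, stayed unnamed. Tests against progenitor-like cells that use tumour 4 are therefore also given without it. Comparisons with neuron-like or granule progenitor-like cells therefore rest on tumours 1, 2 and 3.

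The marker lists matched the names to different degrees. Summed neuron markers reached 5154 to 11910 CPM in neuron-like cells and 862 to 2476 CPM in progenitor-like cells. Granule progenitor markers summed to 4277 to 5854 CPM in neuron-like cells and 1469 to 4655 CPM in progenitor-like cells. Neurod1 raised that sum, with a mean of 1776 CPM in neuron-like against 251 CPM in granule progenitor-like cells of tumours 1 to 3. Zic1, Pax6 and Zic2 were also higher. Atoh1 (105 against 325 CPM), Hey1 (136 against 337 CPM) and Sfrp1 (804 against 1384 CPM) were lower, as were Barhl1, Mfap4, Mycn and Rgs16. Myeloid markers reached 20280 to 38880 CPM in myeloid-like cells. Astrocyte markers summed to 1566 to 5206 CPM in astrocyte-like cells, a cluster that Lcn2 led, and neutrophil markers to 4493 CPM in those of tumour 4. Lcn2 is itself 1 of the 5 neutrophil markers summed. It averaged 768 CPM ± 1437 (SD, n = 4 tumours) in astrocyte-like cells, against 126 CPM for S100a8 and 287 CPM for S100a9. The same astrocyte-like cells carried granule progenitor markers, at 2770, 2576, 3108 and 908 CPM in tumours 1 to 4, and neuron markers at 947 to 3330 CPM. In tumour 1 their granule progenitor markers exceeded their astrocyte markers and were level with those of the progenitor-like cells (2768 CPM). In the oligodendrocyte lineage-like cells, the 12 of 18 markers listed in every table summed to 648, 20440, 4216 and 2344 CPM in tumours 1 to 4. The 10 such cells of tumour 1 had a median of 58142 UMIs and the lowest of these sums, against 333 CPM in the progenitor-like cells of that tumour. Granule progenitor markers summed to 2400, 634, 2487 and 1504 CPM in the oligodendrocyte lineage-like cells of tumours 1 to 4, and neuron markers to 1198 to 2304 CPM. In tumour 1 both exceeded the oligodendrocyte markers, so the name is weak there. Those cells still enter the means and tests below unless tumour 1 is left out. The part of these other cell types' transcripts in the results below was not tested.

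Over all cells of a tumour, the 31 genes together made up 1273 CPM ± 371 (SD, n = 4 tumours). The sums were 1209, 1405, 1681 and 798 CPM in tumours 1 to 4, highest in tumour 3 and lowest in tumour 4. Within cycling-like cells the sums were 1274, 1350, 1687 and 938 CPM, so the order of the tumours was the same in that class. Tumour 4 had the lowest level over all cells for 25 of the 31 genes and the lowest level in cycling-like cells for 22. The same was not counted over all genes, so this is not shown to be particular to the set. Myeloid markers summed to 1116 CPM in the progenitor-like cells of tumour 4 and to 24.8 to 262 CPM in those of the others. In these data, fewer cells of a type and less RNA per cell cannot be told apart in a sum over all cells.

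Srebf1 followed the same order of tumours as the whole set. Its level over all cells was 149, 254, 345 and 76.0 CPM in tumours 1 to 4. Hmgcs1, which makes HMG-CoA ahead of mevalonate, stood at 37.6, 54.7, 126 and 72.6 CPM. Tumour 3 was highest for both, and tumour 4 was lowest for Srebf1 but not for Hmgcs1. Ebp, the sterol isomerase, varied less, at 55.4, 58.4, 55.6 and 67.9 CPM. Scd1 was barely detected, at 0.640 to 2.19 CPM, while its relative Scd2 reached 113, 53.3, 93.9 and 54.2 CPM.

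By mean level over the tumours that hold a class, 15 of the 31 genes were highest in oligodendrocyte lineage-like cells and 10 in neuron-like cells. Elovl5, Fads1 and Fads2 were highest in astrocyte-like cells, Idi1 in cycling-like, Srebf1 in granule progenitor-like and Ebp in myeloid-like cells. Myeloid-like cells were lowest for 28 of 31. These counts were not made over all genes, so they are not shown to be particular to this set. Over all genes tested, the median difference of myeloid-like from progenitor-like cells was itself -0.47. Of the 15 genes, Scd1 averaged only 7.89 CPM in oligodendrocyte lineage-like cells, and the Sc5d mean leans on 10 UMIs of tumour 2. The summed level was 1774 CPM ± 607 in oligodendrocyte lineage-like cells, 1640 CPM ± 123 in neuron-like, 1490 CPM ± 224 in granule progenitor-like, 1440 CPM ± 209 in astrocyte-like, 1312 CPM ± 308 in cycling-like and 542 CPM ± 76.7 in myeloid-like cells (SD, n = 3 tumours for neuron-like and granule progenitor-like and 4 for the others). Tumour 4, low for most of the genes, enters only the classes with 4 tumours. Over tumours 1 to 3 alone, a choice made after seeing the data, astrocyte-like cells gave 1514 CPM ± 182 and cycling-like cells 1437 CPM ± 220, so that astrocyte-like cells then stood above granule progenitor-like cells. The spreads of neighbouring classes overlap, apart from the myeloid-like cells, whose highest tumour (644 CPM) was below the lowest tumour of each of these other classes.

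The roles were not spread over the classes in the same way. Over tumours 1 to 3, the genes from acetyl-CoA to squalene summed to 709 CPM ± 124 in neuron-like cells, 668 CPM ± 292 in oligodendrocyte lineage-like cells and 470 CPM ± 45.2 in progenitor-like cells. Over all 4 tumours, the fatty acid genes summed to 563 CPM ± 73.7 in astrocyte-like cells, 532 CPM ± 172 in oligodendrocyte lineage-like cells and 322 CPM ± 75.6 in progenitor-like cells. Oligodendrocyte lineage-like cells were thus close to the highest class in both. The regulators and Stard4 summed to 438 CPM ± 131 in granule progenitor-like cells, mostly Srebf1, and 237 CPM ± 32.8 in neuron-like cells. These sums are descriptions, and the tests below are per gene.

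**Figure D1:**
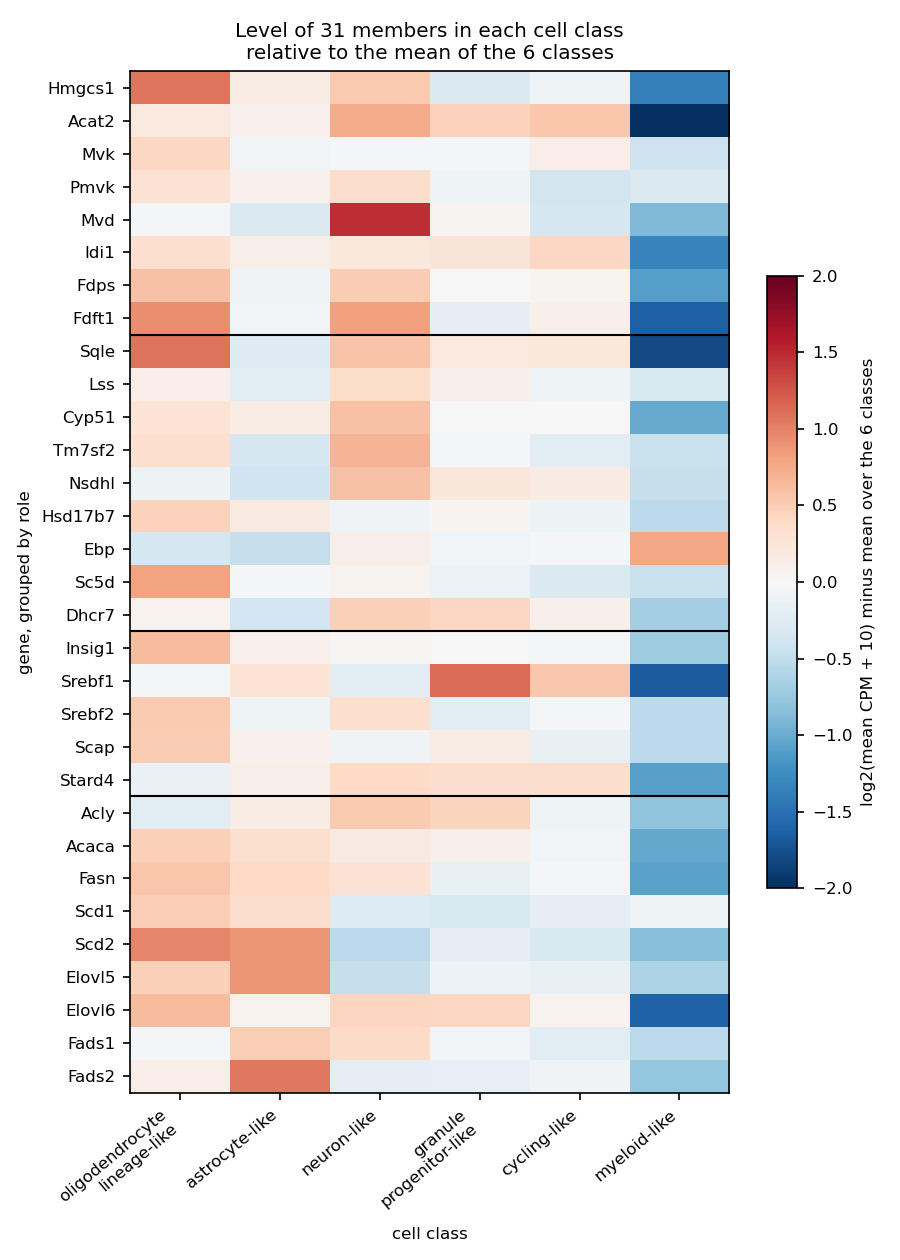
Level of each of the 31 genes (rows, grouped by role) in 6 cell classes (columns), as log2(mean CPM + 10) minus the mean over the classes. Red is above and blue below that mean. The myeloid-like column is the lowest for 28 of the 31 genes, a count not made over all genes. Mvd stands out in neuron-like cells.

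Differences between classes were tested on log2(CPM + 10), a scale that understates the change of low genes, with limma, each tumour as a block and adjustment over all genes tested. A gene passed at an adjusted p under 0.05. Comparisons that use the progenitor-like cells share them, and so are not independent of each other.

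Neuron-like cells had more transcript of most enzymes between acetyl-CoA and squalene than the progenitor-like cells of the same tumour. They also had less Srebf1, a call lost with finer clusters. Of 28 genes tested, 10 were higher and 4 lower. Among all 8241 genes tested, 42.6% passed (22.9% higher and 19.7% lower), so the count of calls by itself is near the background. The median difference was 0.18 on the log2 scale for the 28 genes and 0.02 for all genes. The counts rest partly on 2 tumours: without tumour 2 there were 6 calls and without tumour 3 there were 9. Over all genes the calls fell as well, from 3509 to 2533 and 2574.

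Mvd, the decarboxylase that makes isopentenyl diphosphate, showed the largest difference among the 28. Its level was 98.6, 203 and 112 CPM in the neuron-like cells of tumours 1, 2 and 3 and 31.6, 42.6 and 37.0 CPM in their progenitor-like cells. The groups did not overlap, and tumour 2 was the highest in both. The difference was 1.59 ± 0.13 (SE) on the log2 scale (adjusted p = 1.04e-06). It was also the only one of the 14 calls kept under all 9 alternative settings.

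Hmgcs1 stood at 67.6, 112 and 173 CPM in neuron-like and 40.3, 45.3 and 113 CPM in progenitor-like cells. It was higher in the neuron-like cells of each tumour, although the groups overlap because tumour 3 was high in both (difference 0.78 ± 0.12, adjusted p = 1.56e-04). Fdft1, squalene synthase, stood at 63.1, 112 and 66.0 CPM against 42.2, 49.4 and 44.7 CPM, without overlap (0.67 ± 0.12, adjusted p = 7.50e-04). Pmvk, which phosphorylates phosphomevalonate, was higher by 0.60 and Fdps, farnesyl diphosphate synthase, by 0.40. The other 3 genes of that stretch did not follow. Idi1, which isomerises isopentenyl diphosphate, was lower (difference -0.29, adjusted p = 0.0446). That call was kept under 2 of the 9 alternatives and was lost when any 1 tumour was left out. Acat2, the cytosolic thiolase, and Mvk, mevalonate kinase, did not pass, at differences of 0.11 and -0.11.

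After squalene, Cyp51, the lanosterol demethylase, was higher by 0.46 and Nsdhl, a sterol dehydrogenase, by 0.38. The Nsdhl call was kept under 3 of the 9 alternatives. Sqle (squalene epoxidase), Lss (lanosterol synthase), Hsd17b7 (sterol ketoreductase), Ebp, Sc5d (sterol desaturase) and Dhcr7 (the reductase of the last step) did not pass, with differences from -0.06 to 0.31. Sc4mol, the methylsterol oxidase, did not pass either (0.10). Tm7sf2, a sterol reductase, was under the level tested, at 12.6, 14.2 and 17.3 CPM in neuron-like and 4.83, 3.00 and 3.98 CPM in progenitor-like cells.

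The 2 SREBP genes moved in opposite directions. Srebf2 was higher in neuron-like cells, by 0.37 (adjusted p = 0.0246), a call kept under 4 of the 9 alternatives. Srebf1 stood at 124, 104 and 156 CPM in neuron-like cells and 163, 294 and 393 CPM in progenitor-like cells. Every neuron-like value was below every progenitor-like value (difference -1.02 ± 0.24, adjusted p = 0.0343). The call was lost without tumour 2 (difference -0.83) and without tumour 3 (-0.89), without the tumour block, and with finer clusters, where the difference was -0.20. The finer neuron-like class covered 4 tumours and included a cluster of 287 cells with Srebf1 among its 10 leading genes. The part of that cluster in the smaller difference was not tested. Insig1, Scap and the sterol carrier Stard4 did not pass, with differences of -0.03, -0.10 and 0.00.

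Among the fatty acid genes, Acly, which makes cytosolic acetyl-CoA from citrate, was higher by 0.39 and Fads1, a desaturase of polyunsaturated fatty acids, by 0.47. Elovl5, an elongase of the same fatty acids, was lower (difference -0.38), and so was Scd2, the stearoyl-CoA desaturase (-0.40). Scd2 stood at 103, 33.1 and 60.2 CPM against 101, 56.2 and 95.7 CPM, so it was lower in 2 of 3 tumours and level in the other. Acaca (acetyl-CoA carboxylase), Fasn (fatty acid synthase) and the elongase Elovl6 did not pass, with differences of 0.16, 0.29 and 0.16. Scd1 and Fads2 were under the level tested, at 0 to 1.65 CPM and 2.48 to 8.02 CPM in neuron-like cells.

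Other genes of lipid metabolism in the same comparison came from lists chosen by function. Of 23 further synthesis genes tested, 6 were higher and 1 lower, led by Acss2 (0.87), which makes acetyl-CoA from acetate, Acsl3 (-0.70), a fatty acyl-CoA synthetase, and Elovl4 (0.60), an elongase. Of 13 genes of sterol uptake and efflux, 4 were higher and 3 lower, among them Gramd1a (1.27), a sterol transporter, and Scarb1 (-0.66), a lipoprotein receptor. Of 13 genes of fatty acid oxidation, 2 were higher and 3 lower, led by Acadvl (0.51), Hadhb (-0.38) and Etfa (-0.37). Of 9 hedgehog pathway genes, 8 were lower and 1 higher, led by the coreceptor Gas1 (-1.85), the inhibitor Hhip (-1.28) and the factor Gli1 (-1.21). With the mean of the deposited log2 values in place of CPM, 946 of all genes were higher and 1646 lower, against 1887 and 1622 here.

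**Figure D2:**
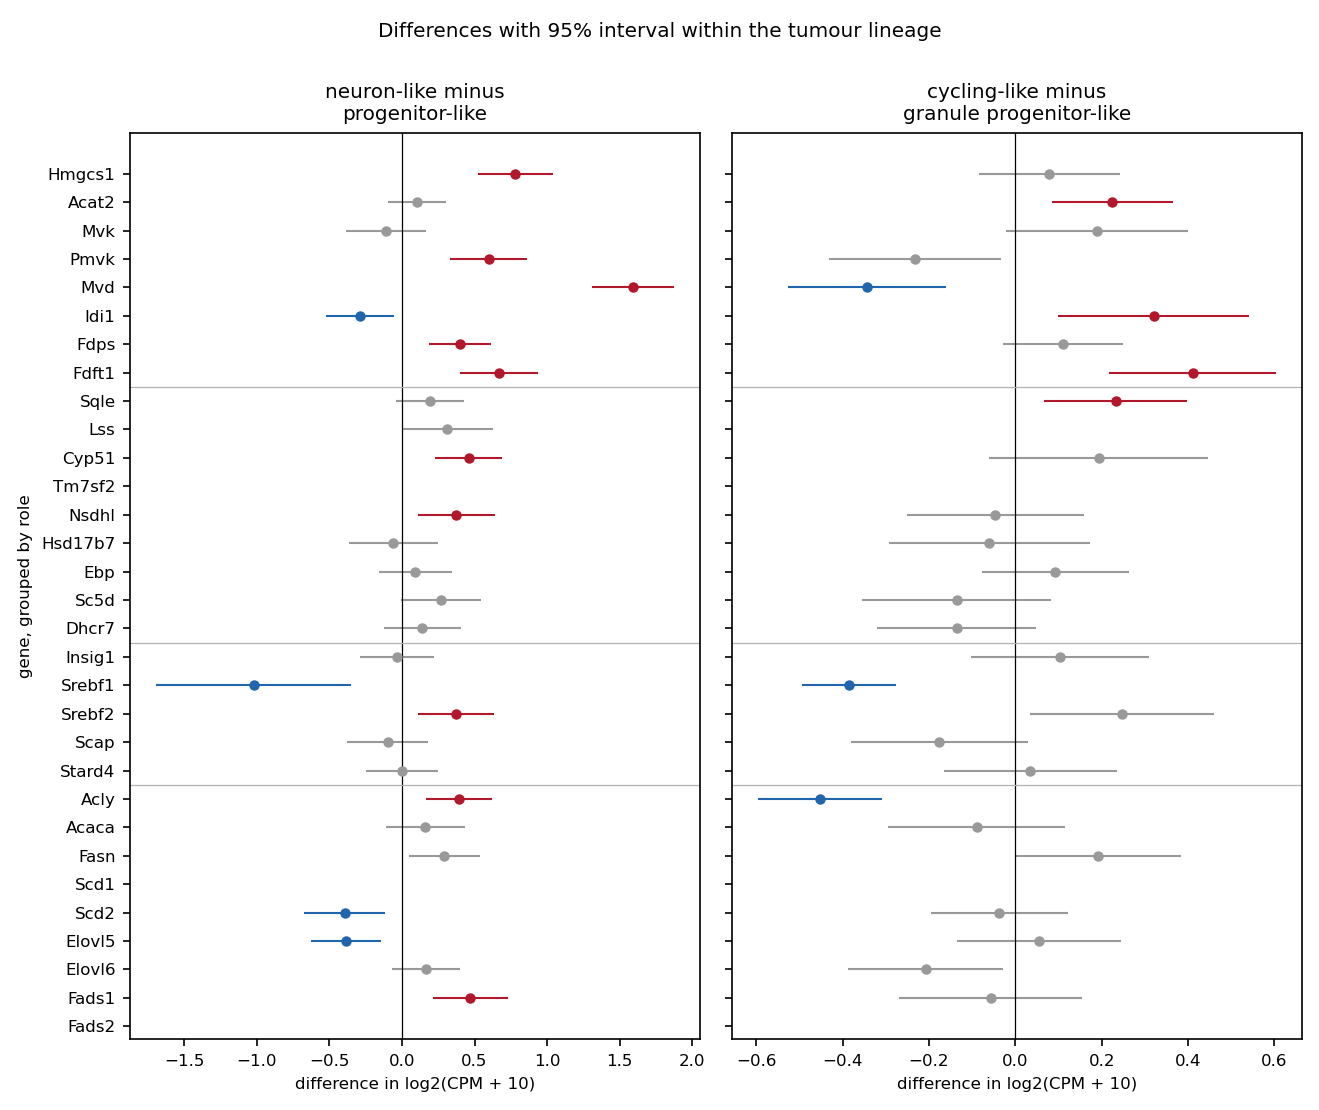
Difference in log2(CPM + 10) for each gene (rows, grouped by role) with its 95% interval, n = 3 tumours, for neuron-like minus progenitor-like cells (left) and cycling-like minus granule progenitor-like cells (right). Red marks genes past the threshold and higher, blue past and lower, grey not past, and rows without a point were not tested; Mvd at 1.59 and Srebf1 at -1.02 are the extremes of the left panel.

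Within the tumour lineage, Srebf1 was not level among the progenitors. In tumours 1, 2 and 3 it stood at 270, 472 and 471 CPM in granule progenitor-like cluster 3, and at 157, 242 and 402 CPM in granule progenitor-like cluster 4. The cycling-like clusters gave 248, 430 and 482 CPM in cluster 2, 141, 242 and 324 CPM in cluster 0 and 99.4, 164 and 278 CPM in cluster 5. In each of the 3 tumours, cluster 2 was above cluster 0 and cluster 0 above cluster 5. The cycling-like cluster found in tumour 4 alone gave 110 CPM, and the neuron-like cluster 124, 104 and 156 CPM. Cluster 15, which scored for granule progenitor markers but stayed unnamed, gave 475 and 428 CPM of Srebf1 in tumours 2 and 3. In the same tumours cluster 3 gave 472 and 471 CPM and cluster 2 gave 430 and 482 CPM. Cluster 15 held only 6 cells of tumour 1, the tumour where clusters 2 and 3 were lowest, and so has no level there. Mvd lay between 24.1 and 64.9 CPM among these named progenitor clusters, below each neuron-like value. It varied there as well: in tumour 3 it ran from 31.1 to 52.3 CPM, while Srebf1 ran from 278 to 482 CPM.

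**Figure D3:**
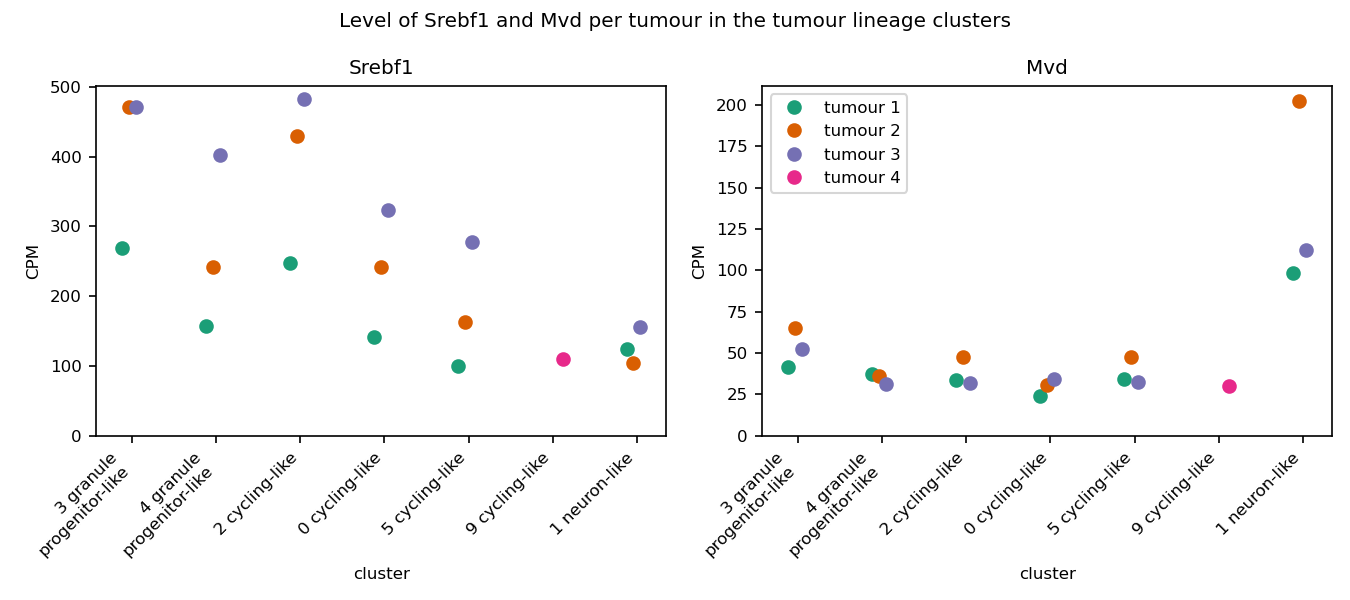
Level in CPM of Srebf1 (left) and Mvd (right) in each tumour lineage cluster, 1 point per tumour. Srebf1 runs from 99.4 to 482 CPM among the progenitor clusters of tumours 1 to 3, while the 3 neuron-like points of Mvd (98.6 to 203 CPM) lie above all its other points.

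Between cycling-like and granule progenitor-like cells, 4 sterol enzymes were slightly higher in the former, and Srebf1, Acly and Mvd were lower. Of 27 genes tested, 4 were higher and 3 lower, against 31.3% of all 8085 genes tested (14.8% higher and 16.5% lower), so the count of calls is no higher than the background. The classes differ in G2/M markers, which summed to 2975 to 3611 CPM in the cycling-like and 214 to 479 CPM in the granule progenitor-like cells of tumours 1 to 3. G1/S markers summed to 1351 to 2270 CPM and 857 to 1354 CPM, so the granule progenitor-like cells are not shown to be out of cycle. Fdft1 was higher by 0.41, Idi1 by 0.32, Sqle by 0.23 and Acat2 by 0.22, and Sc4mol was also higher (0.41, adjusted p = 6.95e-04). Fdft1 stood at 47.6, 51.1 and 49.3 CPM in cycling-like and 28.7, 45.03 and 31.7 CPM in granule progenitor-like cells of tumours 1 to 3, without overlap.

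Srebf1 stood at 145, 272 and 371 CPM in cycling-like cells and 210, 352 and 455 CPM in granule progenitor-like cells. It was lower in each tumour, although the groups overlap (difference -0.38 ± 0.05, adjusted p = 1.57e-06). Acly stood at 58.6, 66.5 and 116 CPM against 80.4, 101 and 159 CPM, again lower in each tumour (-0.45 ± 0.07, adjusted p = 9.07e-06). Mvd was lower by a smaller amount, at 28.5, 39.8 and 33.3 CPM against 39.4, 49.9 and 47.3 CPM (-0.34, adjusted p = 0.00372). The other 20 tested genes did not pass, with differences between -0.23 (Pmvk) and 0.25 (Srebf2).

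Of the 7 calls, 0 were kept under all 9 alternatives: without the tumour block 0 of them passed. Of 24 further synthesis genes, 1 was higher and 6 lower, led by Thrsp (-0.70), Acsl3 (0.51) and Insig2 (-0.37), a relative of Insig1. Of 12 uptake and efflux genes, 1 was higher and 7 lower, led by the exporter Abca1 (-0.76), Apoe (-0.60), an apolipoprotein, and Vldlr (0.55), a lipoprotein receptor. Of 12 oxidation genes, 0 were higher and 6 lower, led by the acyl-CoA dehydrogenases Acadvl (-0.56), Acads (-0.43) and Acadm (-0.43). Of 9 hedgehog genes, 3 were higher, Gas1 (0.63), Hhip (0.61) and Gli1 (0.28). Over all genes 1197 were higher and 1332 lower, and with the mean of the deposited log2 values 633 and 78.

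Astrocyte-like cells had more of a fatty acid desaturase and an elongase than progenitor-like cells of the same tumour, and no tested sterol enzyme passed. Of 28 genes tested in 4 tumours, 2 were higher and 0 lower, against 7.09% of all 8437 genes tested (4.73% higher and 2.36% lower), so the count of calls is at the background. In tumour 2 these cells held 102092 UMIs in all, so that 1 UMI is worth 9.80 CPM there. Scd2 stood at 200.4, 176, 178 and 211 CPM in astrocyte-like cells of tumours 1 to 4 and 101, 56.2, 95.7 and 58.7 CPM in progenitor-like cells. All astrocyte-like values were above all progenitor-like values (difference 1.23 ± 0.18, adjusted p = 0.00162), and the call was kept under all 10 alternatives.

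Elovl5 stood at 61.4, 147, 102 and 53.4 CPM against 36.5, 40.3, 48.0 and 31.998 CPM, also without overlap (0.95 ± 0.22, adjusted p = 0.0237). It did not pass without tumour 2 or without tumour 3, when Scd2 was the only call. Without tumour 4, both Scd2 (1.08, adjusted p = 0.0137) and Elovl5 (1.07, adjusted p = 0.0443) passed. Fads2, the first desaturase of polyunsaturated fatty acids, stood at 5.42, 49.0, 12.7 and 35.6 CPM against 4.099, 7.50, 7.95 and 4.62 CPM. It was higher in all 4 tumours and did not pass (0.97 ± 0.33, adjusted p = 0.112). Fads1 likewise was higher in 4 of 4 tumours and did not pass (0.69 ± 0.24, adjusted p = 0.119).

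The sterol side of the list gave differences in both directions in astrocyte-like cells. None of its genes passed: Hmgcs1 was at 0.26 and Nsdhl at -0.59, the lowest of the 28. Srebf1 stood at 141, 215, 318 and 68.3 CPM against 163, 294, 393 and 105 CPM, below in each tumour without passing (-0.37, adjusted p = 0.142). Lss, Tm7sf2 and Scd1 were under the level tested, with mean levels of 5.68, 2.26 and 6.26 CPM in astrocyte-like cells. In the other lists, Me1 (1.41), the malic enzyme, Mid1ip1 (1.01), an activator of acetyl-CoA carboxylase, Clu (4.38), a lipid carrier, Lrp1 (2.13), a lipoprotein receptor, and Acadl (0.96), an acyl-CoA dehydrogenase, were higher. They were 2 of 22 synthesis, 2 of 14 uptake and 1 of 13 oxidation genes, and 0 of 9 hedgehog genes passed. Over all genes 399 were higher and 199 lower, and with the mean of the deposited log2 values 505 and 808.

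Oligodendrocyte lineage-like cells had the highest mean level for 15 genes, a count not made over all genes. These were sterol enzymes, regulators and fatty acid genes alike, but no gene of the set passed against progenitor-like cells. By limma 0 of 27 genes tested were called, and 1.59% of all 8624 genes. At an unadjusted p under 0.05 there were 7 of the 27, all higher, and 2029 of all genes. The median difference was 0.46 for the 27 genes and 0.02 for all.

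Scd2 stood at 140, 327, 197 and 152 CPM in tumours 1 to 4, above every progenitor-like value (difference 1.25 ± 0.29, 95% interval 0.59 to 1.90, adjusted p = 0.0607). Hmgcs1 stood at 35.8, 211, 238 and 217 CPM against 40.3, 45.3, 113 and 90.3 CPM. It was higher in 3 tumours and a little lower in tumour 1, the one with the lowest sum of oligodendrocyte markers (1.01 ± 0.31, adjusted p = 0.105). Sqle followed the same pattern, at 51.9, 211, 106 and 51.4 CPM against 54.0, 62.4, 64.0 and 22.0 CPM (0.79 ± 0.27, adjusted p = 0.128). Fdft1 was higher in all 4 tumours, at 44.8, 173, 74.6 and 54.1 CPM (0.73 ± 0.26, adjusted p = 0.143). Without tumour 1, 3 genes passed: Scd2 (1.52), Hmgcs1 (1.40) and Sqle (1.07). Calls over all genes rose as well then, from 137 to 826. Without tumour 4, 0 genes of the set and 0 of all genes passed.

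Tumour 2 was high for many genes of the set in these cells, among them Fdps at 250 CPM, against 82.3 to 130.0 CPM in the other tumours. The 16 cells of tumour 2 held 104028 UMIs in all, so 1 UMI is worth 9.61 CPM there and the 96.1 CPM of Sc5d rests on 10 UMIs. Fasn was even across tumours, at 62.7, 57.7, 57.8 and 62.3 CPM against 42.0, 30.2, 41.0 and 29.5 CPM, without overlap (0.63 ± 0.20, adjusted p = 0.111). Srebf2, Insig1 and Acaca were also higher in all 4 tumours without passing (0.61, 0.59 and 0.48). Srebf1, Stard4, Acly, Nsdhl, Ebp, Acat2, Dhcr7 and Idi1 lay below 0, between -0.58 and -0.22, and did not pass. Sc4mol ranged most, at 7.16, 211, 123 and 54.1 CPM, and did not pass (0.66, adjusted p = 0.441). It passed without tumour 1 (1.37, adjusted p = 0.0232) and with thinned cells (1.34, adjusted p = 0.0283). Lss, Tm7sf2, Scd1 and Fads2 were under the level tested, with mean levels of 9.84, 9.503, 7.89 and 8.86 CPM.

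Of the other lists, Clu (3.38) and Lrp1 (2.59) were higher, 2 of 16 uptake genes, and 0 of 25 synthesis, 0 of 13 oxidation and 0 of 9 hedgehog genes passed. Against astrocyte-like cells, 0 of 28 genes passed by limma, with 0.883% of all 8943 genes called and 5 of the 28 and 892 of all genes at an unadjusted p under 0.05. The nearest were Sqle (1.14, 95% interval 0.33 to 1.95, adjusted p = 0.257), Fdft1 (0.83, 0.19 to 1.48) and Hmgcs1 (0.75, 0.16 to 1.34) on the higher side, and Fads2 (-0.79, -1.57 to -0.01) on the lower. Scd2 was at 0.01 (-0.54 to 0.56). Of the other lists only Apoe passed, lower at a mean of 1289 CPM against 9799 CPM (-2.69). Over all genes, 128 were higher and 9 lower against progenitor-like cells, and with the mean of the deposited log2 values 485 and 212. Against astrocyte-like cells the numbers were 23 and 56, and by the deposited log2 values 105 and 79.

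Myeloid-like cells had less transcript of 19 of the genes than progenitor-like cells, and more of Ebp. Of 25 genes tested, 19 were lower and 1 higher, against 64.9% of all 7909 genes tested (46.9% lower and 18.0% higher). The median of all genes was itself shifted, to -0.47 on the log2 scale, and to -0.12 with the mean of the deposited log2 values. The median of the 25 genes was -0.82, and 20 of them lay below the median of all genes. Of the 20 calls, 13 were kept under all 10 alternatives, and without tumour 4 there were 17 lower and 1 higher. In tumour 3 the 12 myeloid-like cells held 88519 UMIs, so 1 UMI is worth 11.3 CPM and 3 UMIs, taken as the floor, 33.9 CPM.

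Acat2 stood at 12.9, 7.08, 11.3 and 12.02 CPM in myeloid-like and 137, 106, 124 and 76.1 CPM in progenitor-like cells of tumours 1 to 4 (difference -2.52 ± 0.20, adjusted p = 1.51e-05). Srebf1 stood at 24.8, 35.4, 79.1 and 23.2 CPM against 163, 294, 393 and 105 CPM (-2.26 ± 0.19, adjusted p = 1.90e-05). Both were far apart without overlap. Sqle stood at 11.9, 7.08, 0 and 3.37 CPM against 54.0, 62.4, 64.0 and 22.0 CPM (-1.95 ± 0.28). The 0 of tumour 3 is under that floor. Elovl6 (-1.74), Fdft1 (-1.73), Idi1 (-1.65), Stard4 (-1.48), Hmgcs1 (-1.28), Fdps (-1.19), Fasn (-1.03), Cyp51 (-1.03) and Acaca (-0.998) followed. Acly (-0.82), Dhcr7 (-0.81), Insig1 (-0.66), Mvd (-0.65), Nsdhl (-0.64), Scd2 (-0.60) and Elovl5 (-0.49) were lower by less. The last of these lies at the median shift of all genes.

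Ebp stood at 77.6, 103, 124 and 99.5 CPM in myeloid-like cells and 54.5, 55.0, 57.7 and 43.0 CPM in progenitor-like cells. It was higher in all 4 tumours without overlap (0.82 ± 0.17, adjusted p = 0.00312). Pmvk stood near level, at 33.4, 26.0, 22.6 and 20.03 CPM against 28.3, 23.8, 27.4 and 21.7 CPM (-0.00, 95% interval -0.42 to 0.42). Mvk, Srebf2, Scap and Fads1 did not pass, with differences from -0.52 to -0.32, nor did Sc4mol (-0.39). Lss, Tm7sf2, Hsd17b7, Sc5d, Scd1 and Fads2 were under the level tested, at means of 0.0527 (Fads2) to 8.16 CPM (Sc5d) in myeloid-like cells.

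The other lists did not all follow. Of 15 uptake and efflux genes, 11 were higher and 0 lower, led by Apoe (6.44), Mylip (2.82), which degrades the LDL receptor, and Abcg1 (2.79), a sterol exporter. Apoe reached a mean of 32490 CPM against 455 CPM. Of 22 further synthesis genes, 4 were higher and 9 lower, led by the elongases Elovl1 (2.46) and Elovl4 (-1.62) and the dehydratase Hacd1 (-1.55). Of 13 oxidation genes, 4 were higher and 2 lower, led by Cpt1a (1.54), which loads fatty acids for the mitochondrion, Eci1 (-0.80) and Ppard (0.78). Of 9 hedgehog genes, 8 were lower and 0 higher, led by Gas1 (-2.75) and Smo (-1.96).

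**Figure D4:**
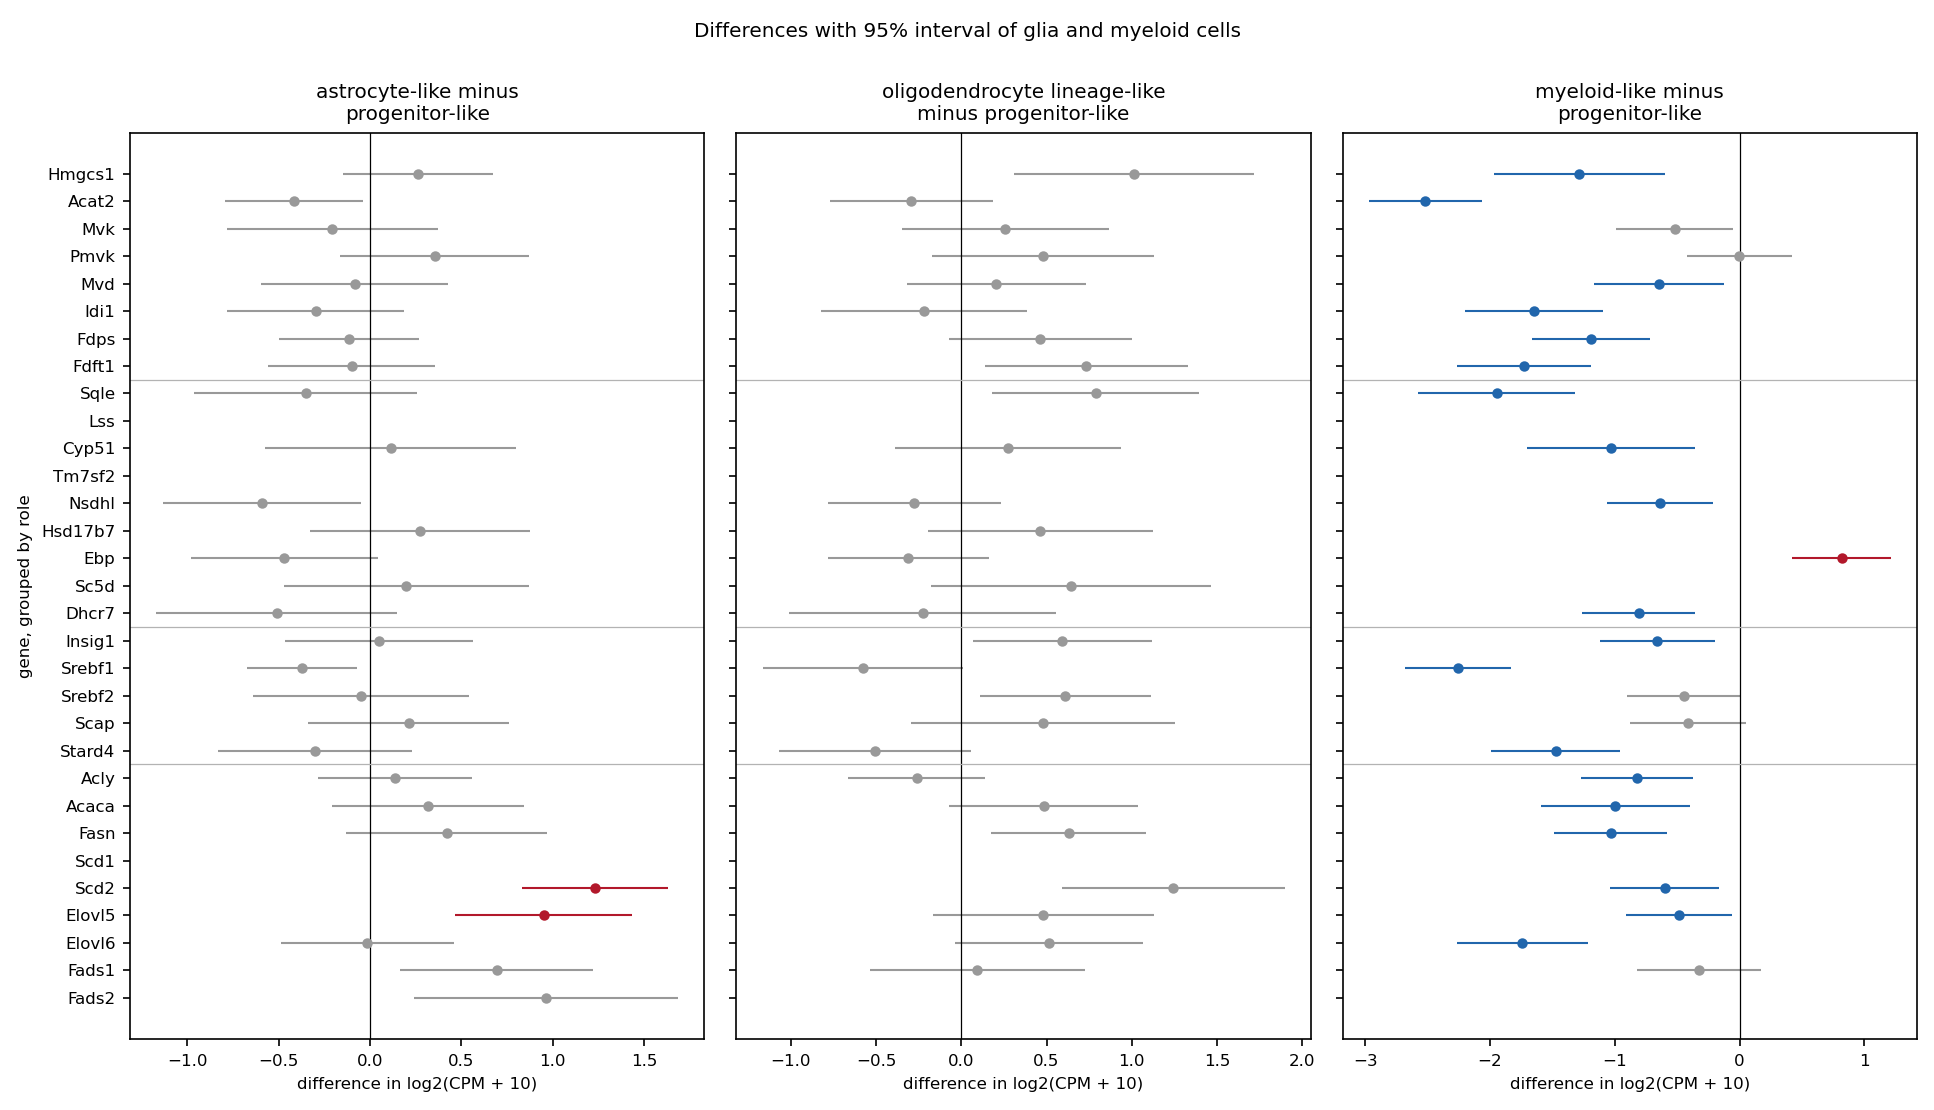
Difference in log2(CPM + 10) for each gene (rows, grouped by role) with its 95% interval, n = 4 tumours, for astrocyte-like, oligodendrocyte lineage-like and myeloid-like cells, each minus the progenitor-like cells of the same tumours. Red marks genes past the threshold and higher, blue past and lower, grey not past; in the myeloid-like panel 19 of 25 genes are blue and Ebp is red, and in the oligodendrocyte lineage-like panel no gene passed.

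**Figure D5:**
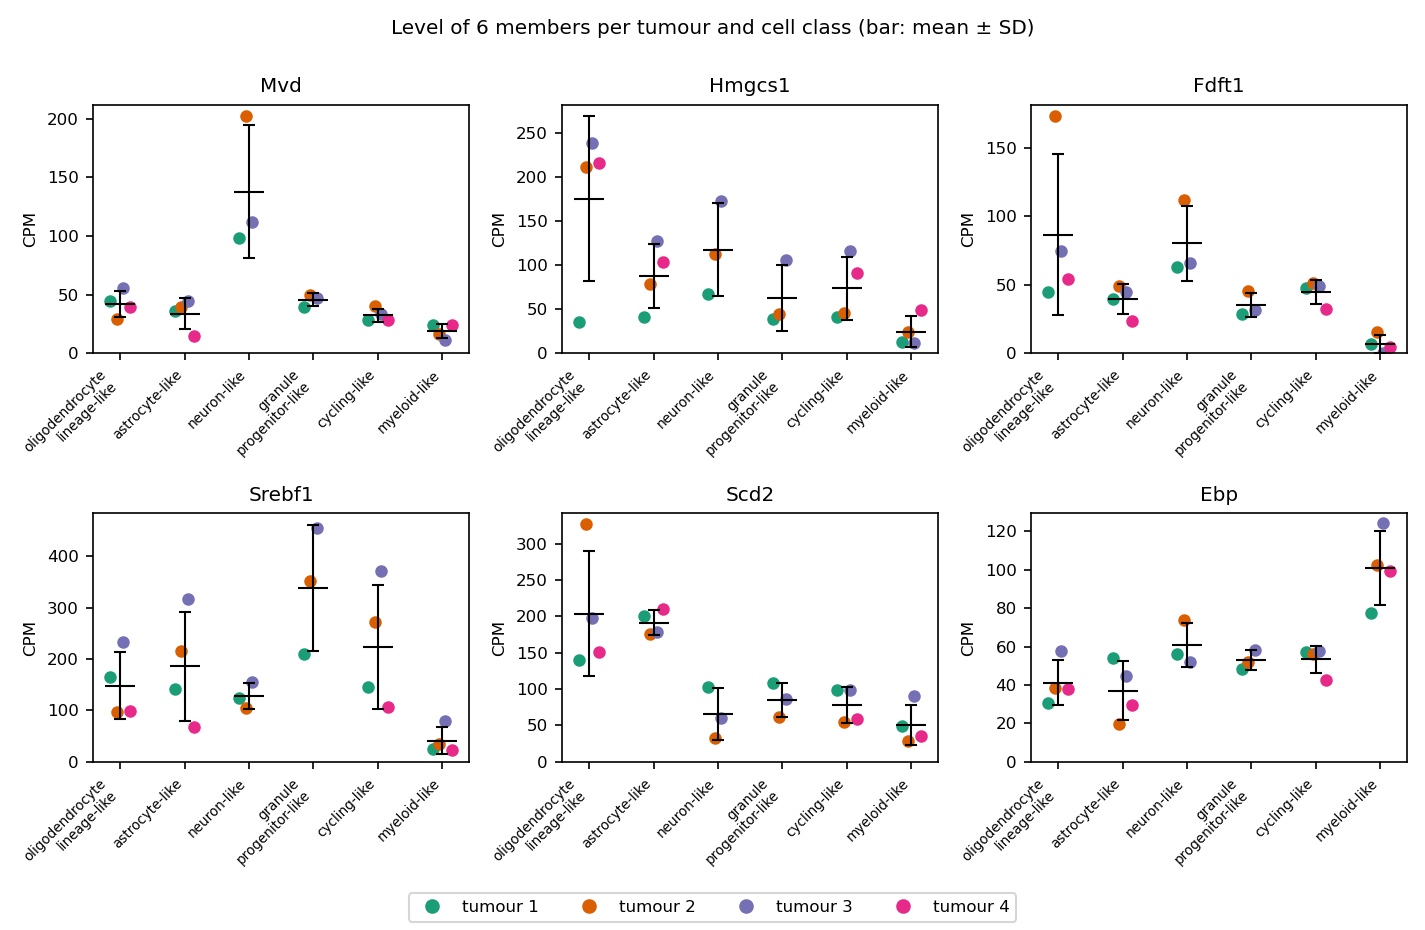
Level in CPM of Mvd, Hmgcs1, Fdft1, Srebf1, Scd2 and Ebp in 6 cell classes, 1 point per tumour, with bars for the mean ± SD over 3 or 4 tumours. Mvd is highest in neuron-like, Srebf1 in granule progenitor-like and Ebp in myeloid-like cells, and the Hmgcs1 point of tumour 1 (35.8 CPM) lies far below the others in oligodendrocyte lineage-like cells.

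The genes were last compared between granule progenitor-like cells with and without a detected UMI of Gli1, the hedgehog target and effector, after each cell was thinned to 3000 UMIs. The split used 14, 103 and 47 cells with Gli1 and 132, 516 and 233 without in tumours 1 to 3. By limma, 0 of 27 genes passed, as did 0 of all 8050 genes tested (0%), and 1 of the 27 and 290 of all genes had an unadjusted p under 0.05. That gene was Srebf1, at 405, 424 and 539 CPM with Gli1 and 197, 359 and 474 CPM without, higher in 3 of 3 tumours (0.47 ± 0.16, 95% interval 0.13 to 0.82, adjusted p = 0.925). The level in tumour 1 rests on 17 UMIs from 14 cells. Hmgcs1 was at 71.4, 45.3 and 85.1 CPM against 32.8, 44.6 and 115.9 CPM, with no common direction. The interval of Mvd ran from -0.46 to 0.95. The cells with Gli1 held 15, 113 and 58 Gli1 UMIs in tumours 1 to 3, so the split rests mostly on single UMIs. A cell without a detected UMI may still hold Gli1 RNA. The split therefore says nothing of cells that lack Gli1 RNA, and no conclusion is drawn from the 0 calls.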

How the data were processed

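Single-cell RNA sequencing of 4 tumours was deposited as 1 table of genes by cells per tumour, holding log2 values, log2(UMI count / size factor + 1), a form read from the values themselves. Per the submitters' processing notes, the tools were Cell Ranger and Seurat and the genome build was mm10, without versions. Nothing in the sources used here says how size factors were made or how strand and reads matching several genes were handled. The deposited log2 values were turned back into whole UMI counts (within 1e-08), since each fell on a whole step per cell. Floors cover counting error only, whereas the 95% intervals come from the fits over tumours.

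A filter of 500 genes per cell and 10% mitochondrial UMIs removed 0 of 6509 cells. Doublets were not removed; at 0.8% per 1000 cells, about 99.5 would be expected, and any removal by the authors is not known. Cells were clustered with scanpy 1.11.5 and leidenalg 0.10.2 on 1000 variable genes, 30 principal components, 15 neighbours and resolution 1, without the 31 genes and the other gene lists (112 genes kept out). Clusters were named from marker lists by a score of at least 0.5 that exceeded the next class by 0.3, on at least 3 markers. A smaller margin was allowed where the class had the most markers among the cluster's 10 leading genes. A cluster stayed unnamed where another class had more markers there. Cluster 8, 307 cells of tumour 4 alone, stayed unnamed in this way at a neuron score of 0.94. Clusters with a cell cycle score of at least 1 were cycling-like if granule progenitor scored highest or no class reached 0.5. The naming thresholds were changed once the clusters were known, ahead of the tests of the set. The 31 genes and the other lists were chosen with earlier results of these data known.

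UMIs were summed per tumour and class (at least 10 cells, at least 3 tumours) and tested with limma 3.58.1 (R 4.3.3) on log2(CPM + 10), with trend and robust settings, for genes listed in all 4 tables with a mean of at least 10 CPM. Adjusted p-values (Benjamini-Hochberg) cover all genes tested. The same tumour gave both classes of a comparison, so tumour was a replicate block; the correlations of same-tumour deviations across genes ran from 0.0814 to 0.842, the lowest in the oligodendrocyte lineage-like cells of tumour 2. Every gene of the set is accounted for; from each other list, the 3 genes with the largest difference among those past the threshold are named, apart from some that are not reported here. Alternatives were the mean of the deposited log2 values, a pseudocount of 50 CPM, no filter, no replicate block, cells thinned to 3000 UMIs, resolution 2, and leaving out each tumour. The scripts were tested on simulated data. Protein sequences were not used here.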

Additional observations from a re-analysis of the deposited data

Results flagged for a closer look

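In 151 groups of 4 tumours (a gene in a cell class), the gap between the most extreme tumour and its nearest neighbour was compared with the range of the group by Dixon's test at 95%. Chance gives about 1 in 20, or 7.5 here, and 6 were found, so their number is no pattern. Elovl6 over all cells was 18.9 CPM in tumour 4 and 42.4 to 47.0 CPM in the others. Ebp in cycling-like cells was 42.8 CPM in tumour 4 and 56.1 to 57.5 CPM in the others. Stard4 in cycling-like cells was 41.4 CPM in tumour 1 and 28.1 to 29.9 CPM in the others. Acly in cycling-like cells was 115.8 CPM in tumour 3 and 58.6 to 66.5 CPM in the others. Hmgcs1 in oligodendrocyte lineage-like cells was 35.8 CPM in tumour 1 and 211.5 to 238.3 CPM in the others. Sc5d in the same class was 96.1 CPM in tumour 2, from 10 UMIs, and 7.16 to 16.9 CPM in the others.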

How the results depend on the processing

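The number of the 31 genes called between neuron-like and progenitor-like cells was 14. It was 7 with the mean of the deposited log2 values, 8 with thinned cells, 3 with no replicate block and 6 to 12 when a tumour was left out. Between cycling-like and granule progenitor-like cells the 7 calls became 1, 4 and 0 under the first 3 of these settings and 5 to 7 when a tumour was left out. For astrocyte-like cells the 2 calls became 6, 1 and 1, and 1 to 3. For oligodendrocyte lineage-like against progenitor-like cells the 0 calls became 1 with the mean log2 values, 3 with thinned cells, 1 at resolution 2 and 0 to 3 when a tumour was left out, and against astrocyte-like cells 1 with thinned cells. Myeloid-like cells kept a count within 1.5 times of 20 under each setting (14 to 20 when a tumour was left out), and the split by Gli1 stayed at 0. No gene reversed past the threshold. Of the single-gene differences under an alternative, Sc4mol included, 436 kept their direction and side of the threshold, 105 lost the call and 25 gained one. Of the counts over all genes, 29 moved by more than 1.5 times and 37 did not. Over all genes, the 598 calls for astrocyte-like cells became 1313 with the mean log2 values, 319 with no replicate block, and 327, 162 and 312 without tumours 2, 3 and 4. The 2529 calls for cycling-like cells became 711, 212 and 1578 with the mean log2 values, no replicate block and without tumour 2. The 3509 calls for neuron-like cells became 1304 with no replicate block and 1991 with thinned cells. The 79 calls between oligodendrocyte lineage-like and astrocyte-like cells became 184 with the mean log2 values, 41 with a pseudocount of 50 CPM, 42 with no replicate block, and 206, 15 and 31 without tumours 1, 3 and 4. The 137 calls between oligodendrocyte lineage-like and progenitor-like cells became 697 with the mean log2 values, 0 with a pseudocount of 50 CPM, 511 with thinned cells, 459 at resolution 2, and 826, 25, 0 and 0 without tumours 1, 2, 3 and 4. The 0 calls for the split by Gli1 became 2 with no filter, 1 at resolution 2, and 5 and 1 without tumours 1 and 3. Of the single-gene levels, 29 moved by less than 1 SD in progenitor-like cells alone and those of Pmvk and Ebp by more. The summed level of 1273 CPM was 1322 CPM in progenitor-like cells alone. In the cycling comparison, thinned cells gave 713 genes higher and 468 lower over all genes, against 1197 and 1332. Thinning of the split by Gli1 to another depth was not run. Small classes limit depth: a floor of 3 UMIs is 33.9 CPM in the myeloid-like cells of tumour 3, 29.4 CPM in the astrocyte-like and 28.8 CPM in the oligodendrocyte lineage-like cells of tumour 2.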
